A study of Mus musculus with 12 samples.

Results

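The interleukin-6 (IL-6) family was followed in the injured mouse spinal cord through 10 genes, the ligands Il6, Osm, Lif, Il11, Clcf1 and Cntf, the receptor genes Il6ra, Il6st and Osmr, and the feedback inhibitor gene Socs3. They were chosen by symbol in the annotation of the array, out of 19938 genes that had a probe set to themselves. Of the 10 genes, 9 were measured. The only probe set listed for Cntf is also assigned to Zfp91 and Gm44505, so Cntf was not analysed here. Whole-transcript arrays were made from wild-type C57BL/6 mice and from Il1a KO and Il1b KO mice on the C57BL/6 background, which lack interleukin-1 alpha and interleukin-1 beta. All 3 groups were aged 8 to 12 weeks and received a spinal contusion of 50 kdyn, and a 6 mm piece of cord around the lesion was taken 24 h later. Each group had 4 arrays of separate biological replicates, 12 arrays in all. No uninjured cord was analysed here, so the values compare genotypes after injury and not injury with rest.

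Cytokines of the IL-6 family share the signalling receptor gp130, encoded by Il6st. Each ligand joins gp130 to a partner, the IL-6 receptor (Il6ra) for IL-6, the oncostatin M receptor (Osmr) for mouse oncostatin M, and the LIF receptor for leukemia inhibitory factor. The complex activates JAK kinases and the transcription factor STAT3, which induces acute-phase genes and Socs3, whose protein binds gp130 and shuts the signal down. In the nervous system the family is known for reactive gliosis and for support of injured neurons, and interleukin-1 is a classical inducer of Il6 transcription through NF-kB.

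The upstream sequences of 4 genes are shown, Il6, Lif, Il11 and Socs3. These genes were at their highest on the same array, Il1b KO replicate 3, Socs3 on the brighter of its 2 probe sets only. Osm was also highest there but has no sequence to show. Whether the motifs bear on these values was not tested. Each is the 250 bases before a RefSeq transcription start in GRCm38.p6, written 5′ to 3′ along the gene. RefSeq entries were matched for 8 of the 10 genes, all but Osm and Clcf1. Capitals mark matches to the NF-kB consensus, to the AP-1 motif TGANTCA or to the STAT motif TTCNNNGAA on either strand.
Il6 (chr5:30012864-30013113, plus strand): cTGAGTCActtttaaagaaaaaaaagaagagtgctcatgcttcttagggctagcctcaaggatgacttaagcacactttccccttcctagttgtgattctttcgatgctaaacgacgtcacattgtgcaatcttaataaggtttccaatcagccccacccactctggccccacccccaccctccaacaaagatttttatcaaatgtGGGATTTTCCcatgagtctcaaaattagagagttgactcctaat
Lif (chr11:4257318-4257567, plus strand): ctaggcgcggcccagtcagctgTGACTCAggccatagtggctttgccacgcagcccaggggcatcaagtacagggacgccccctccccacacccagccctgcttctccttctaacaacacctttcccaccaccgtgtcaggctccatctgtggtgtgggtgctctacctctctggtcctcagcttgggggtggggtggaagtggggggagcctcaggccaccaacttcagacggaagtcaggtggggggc
Il11, the second of 2 listed starts (chr7:4778142-4778391, minus strand): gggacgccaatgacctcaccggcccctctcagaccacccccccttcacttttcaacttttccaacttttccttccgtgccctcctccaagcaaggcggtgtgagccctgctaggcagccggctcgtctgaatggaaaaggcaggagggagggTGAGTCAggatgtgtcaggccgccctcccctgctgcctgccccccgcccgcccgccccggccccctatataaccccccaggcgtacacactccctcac
Socs3 (chr11:117969367-117969616, minus strand): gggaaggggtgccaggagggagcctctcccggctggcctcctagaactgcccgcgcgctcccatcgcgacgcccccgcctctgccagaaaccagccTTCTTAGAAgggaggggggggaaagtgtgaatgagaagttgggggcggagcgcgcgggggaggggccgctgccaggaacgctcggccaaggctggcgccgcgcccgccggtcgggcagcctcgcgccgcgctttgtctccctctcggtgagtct
The Il6 sequence held an NF-kB match 44 to 35 bases before the start and an AP-1 match 249 to 243 bases before it. AP-1 matches also lay 228 to 222 bases before the Lif start and 98 to 92 bases before this Il11 start, whereas the window of the other Il11 start held none of the 3 motifs. Socs3 held the STAT match, 154 to 146 bases before its start. Among the sequences not shown, that of Cntf held an AP-1 match 245 to 239 bases before its start. Among all 32851 upstream windows of this length, 3.9% held an NF-kB match, 6.75% an AP-1 match and 7.02% a STAT match. No capitals overlap another motif, and a match is a run of letters, not a measured binding site.

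The tissue and the genotypes were checked first. All 12 neuronal and all 9 mature oligodendrocyte markers measured lay above 6.82 on the log2 scale, the level under which 95% of 1027 olfactory receptor genes, taken as a reference for array background, were found. Il1b was at 7.68 to 8.06 in wild type and 6.19 to 6.63 in the Il1b KO. Il1a was at 5.74 to 6.22 in wild type and 4.87 to 5.03 in the Il1a KO, and neither pair of ranges overlapped. Il1a was low in the Il1b KO too, at 4.85 to 5.31, a range that holds all Il1a KO values. Every Il1a value, wild type included, lay under the 6.82 of the background reference. Il1a alone therefore does not tell the knockouts apart, whereas Il1b was at 7.96 to 8.18 in the Il1a KO, above the Il1b KO. Il1a KO replicate 1 stood apart from the other 11 arrays in sex-linked genes, with Xist at 6.47 against 11.89 to 12.19 elsewhere and Eif2s3y at 9.15 against at most 3.94. The 3 Y-linked genes measured were at 7.85 or more on this array and at 3.65 to 5.31 elsewhere. This is the pattern of a male on this array and of females on the other 11. Results without that array are given for the family counts, Clcf1, the receptor genes, the signs of the STAT3-induced genes and the A2m call. For the other pathway and marker genes, and for the unadjusted counts in their lists and the STAT3 list, they are not given.

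No measured gene of the family passed the test in any comparison. With limma (adjusted p under 0.05 over all genes) 0 of 9 were called in the Il1a KO against wild type, where 0.171% of all genes were called, 0 of 9 in the Il1b KO (0.813% of all genes) and 0 of 9 between the knockouts (0.652%). At an unadjusted p under 0.05, 3 were lower and 0 higher in the Il1a KO (Clcf1, Il6ra and Osmr), against 3.77% of all genes lower and 4.54% higher. In the Il1b KO 3 were higher and 0 lower (Osm, Lif and Il11), against 8.42% of all genes higher and 4.58% lower. Between the knockouts 2 were lower in the Il1a KO (Osm and Il11) and 0 higher, against 4.80% and 2.99% of all genes. Without any overlap between groups were 1, 0 and 0 of the 9 genes in the 3 comparisons, against 5.06%, 7.00% and 7.24% of all genes. Single arrays moved these counts. Without Il1a KO replicate 1, wild-type replicate 3 or wild-type replicate 4 only Clcf1 was left of the 3 in the Il1a KO. Osmr alone dropped out without Il1a KO replicate 3 or 4, or without Il1b KO replicate 2 or 3. The count became 4, with Il6st, without Il1a KO replicate 2 or wild-type replicate 1. In the Il1b KO the count of 3 became 0 without Il1b KO replicate 3 (with Clcf1 then lower) and 1 without wild-type replicate 2 (with Il6ra then lower). It became 2 without Il1b KO replicate 2 (Il6 and Osm), wild-type replicate 3 (Il6 and Il11) or wild-type replicate 4 (Osm and Il11). Without Il1b KO replicate 1 it became 4, with Il6. Beside an unchanged count of 3, Clcf1 was lower without Il1b KO replicate 4, and Clcf1 and Il6st were lower without wild-type replicate 1. Between the knockouts the count of 2 became 0 without Il1b KO replicate 3 or Il1a KO replicate 4. It became 1 without Il1a KO replicate 1, Il1a KO replicate 2 or Il1b KO replicate 2, and 3, with Il6, without Il1b KO replicate 1. The estimates follow as sizes with intervals, and 2 limits apply to all of them. In a piece of whole cord, fewer cells of a type and less RNA per cell cannot be told apart, and fold changes of dim probe sets are compressed.

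**Figure D1:**
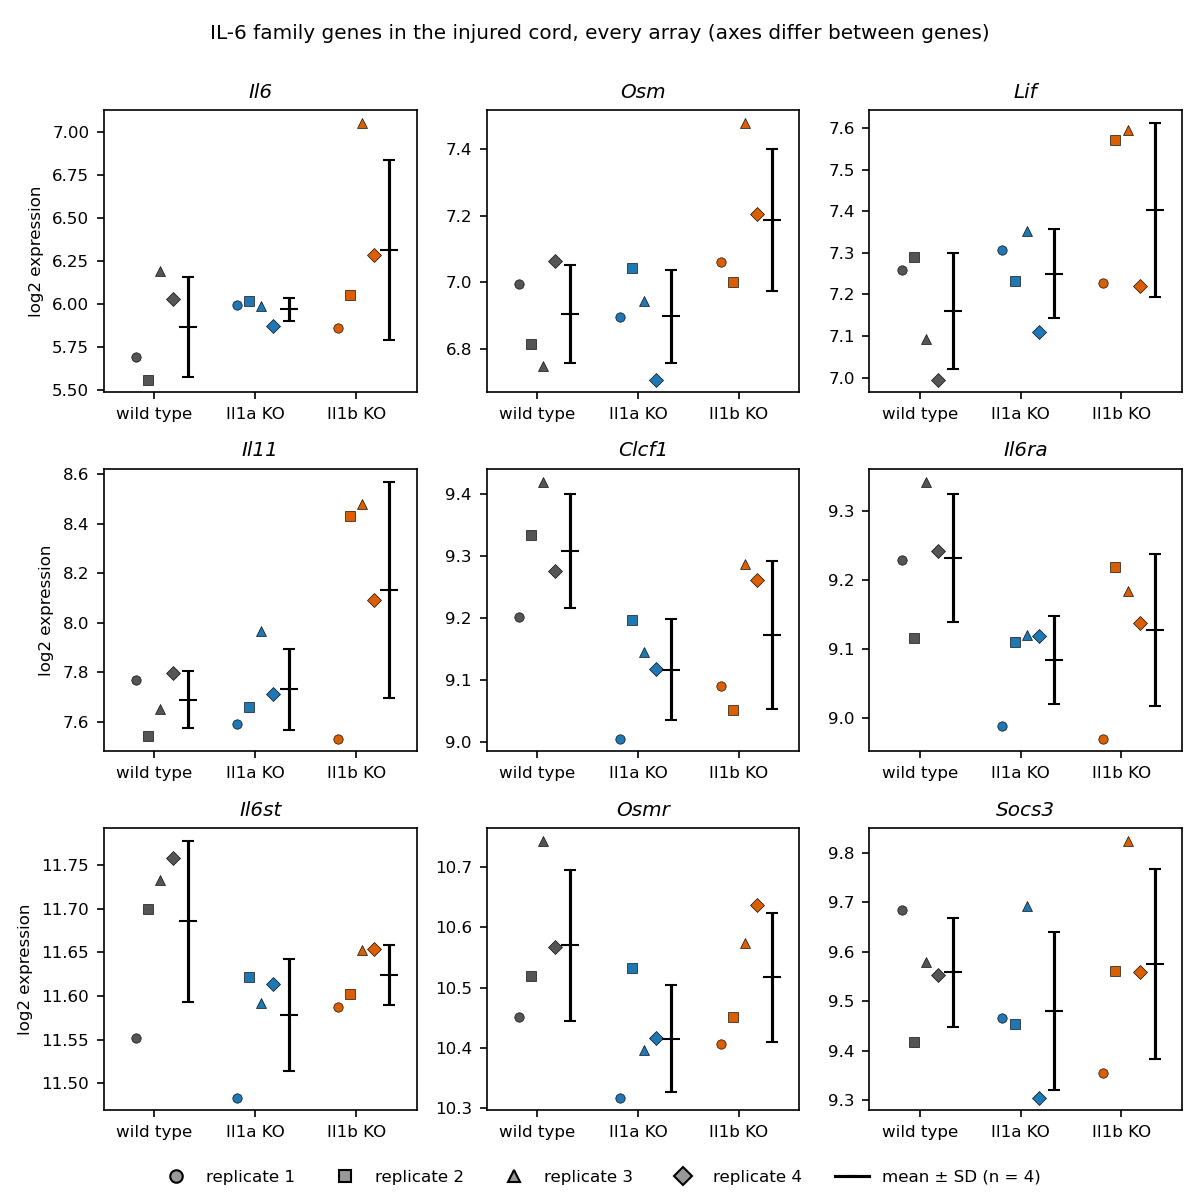
Log2 expression of the 9 measured genes (vertical axes, 1 scale per gene) on each of the 12 arrays, by genotype; marker shape gives the replicate number and the bar the mean ± SD (n = 4). Il1b KO replicate 3 is the highest of all arrays in Il6, Osm, Lif, Il11 and Socs3 (the lowest on the second Socs3 probe set, not drawn), and the Clcf1 values of the Il1a KO (9.01 to 9.20) lie below those of wild type (9.20 to 9.42).

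Among the ligands, Il6, the founding cytokine of the family, was at 5.69, 5.56, 6.19 and 6.03 in wild-type replicates 1 to 4. In the Il1a KO it was at 5.99, 6.02, 5.99 and 5.87, and in the Il1b KO at 5.86, 6.05, 7.05 and 6.28. The groups overlapped, and a single Il1b KO array, replicate 3, lay far above all others. The mean of the Il1b KO, 6.31 ± 0.523 (SD, n = 4), was 1.36-fold above the wild-type mean of 5.87 ± 0.291 (SD, n = 4), a log2 difference of 0.45 (95% interval -0.0016 to 0.89, limma adjusted p = 0.386). Without Il1b KO replicate 3 the difference was 0.20 on the log2 scale. In the Il1a KO the log2 fold change was 0.10, with an interval of -0.35 to 0.55 (limma adjusted p = 0.973). Il6 averaged 6.05 over all arrays, under the 6.82 of the background reference, and 79.5% of the olfactory receptor genes were dimmer, so these intervals do not bound the change in Il6 RNA. Its within-group SD was larger than that of 99.8% of all genes.

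Osm encodes oncostatin M, a cytokine made largely by myeloid cells. It was at 6.99, 6.81, 6.75 and 7.06 in wild type, and at 6.89, 7.04, 6.94 and 6.71 in the Il1a KO. The Il1b KO had 7.06, 7.00, 7.48 and 7.21. The means of wild type and Il1a KO were nearly equal, while replicates 3 and 4 of the Il1b KO were above all 8 arrays of the other genotypes and its replicates 1 and 2 were not, so the groups overlapped. The Il1b KO was 1.22-fold above wild type, or 0.28 on the log2 scale (95% interval 0.06 to 0.51, limma adjusted p = 0.278), and the Il1a KO differed from wild type by -0.0077 (interval -0.23 to 0.22). Between the knockouts the Il1a KO was lower by a log2 difference of -0.29 (interval -0.52 to -0.06, limma adjusted p = 0.463). Without Il1b KO replicate 3 Osm differed by 0.18 from wild type (interval -0.013 to 0.38) and by -0.19 between the knockouts. Osm averaged 7.00 over all arrays, close to the 6.82 of the background reference, and its values of 6.81, 6.75 and 6.71 were under it.

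Lif, leukemia inhibitory factor, lies next to Osm on chromosome 11. It was at 7.26, 7.29, 7.09 and 7.00 in wild type, at 7.31, 7.23, 7.35 and 7.11 in the Il1a KO, and at 7.23, 7.57, 7.60 and 7.22 in the Il1b KO. Replicates 2 and 3 of the Il1b KO were above every other array, whereas replicates 1 and 4 were inside the wild-type range. The Il1b KO mean was 1.19-fold higher, or 0.24 on the log2 scale (95% interval 0.03 to 0.46, limma adjusted p = 0.312). For the Il1a KO the log2 fold change was 0.09 (interval -0.12 to 0.30).

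Il11, which signals through its own receptor and gp130, showed the clearest split inside the Il1b KO. Its values were 7.77, 7.54, 7.65 and 7.79 in wild type and 7.59, 7.66, 7.96 and 7.71 in the Il1a KO, against 7.53, 8.43, 8.48 and 8.09 in the Il1b KO. Replicates 2, 3 and 4 of the Il1b KO exceeded all 8 arrays of the other genotypes, and replicate 1 was the lowest of all 12. The mean difference was 0.44 on the log2 scale, or 1.36-fold (95% interval 0.08 to 0.80, limma adjusted p = 0.28). Without Il1b KO replicate 1, Il11 passed the test against wild type with a difference of 0.64 (limma adjusted p = 0.0181) and against the Il1a KO (log2 difference -0.60, limma adjusted p = 0.026). That array also had the lowest neutrophil marker level of all 12 (list mean 7.11, against 7.56 to 7.78 in the rest of its group, 14 of 15 markers measured) and the second lowest monocyte and macrophage level (8.53 against 8.76 to 8.86, 13 of 14 measured). The part of these cells in the Il11 values was not tested. In the Il1a KO, Il11 differed from wild type by 0.04 (interval -0.32 to 0.40).

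Clcf1, cardiotrophin-like cytokine factor 1, a ligand of the CNTF receptor, ran the other way. It was at 9.20, 9.33, 9.42 and 9.28 in wild type and at 9.01, 9.20, 9.15 and 9.12 in the Il1a KO. All 4 Il1a KO arrays were below all 4 wild-type arrays, with 9.197 next to 9.201 at the border, and Clcf1 was the only family gene of the 9 without overlap in this comparison. It was 1.14-fold lower in the Il1a KO (log2 fold change -0.19, 95% interval -0.33 to -0.05, limma adjusted p = 0.402). In the Il1b KO, with 9.09, 9.05, 9.29 and 9.26, the groups overlapped and the log2 fold change was -0.14 (interval -0.28 to 0.0063, limma adjusted p = 0.408).

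**Figure D2:**
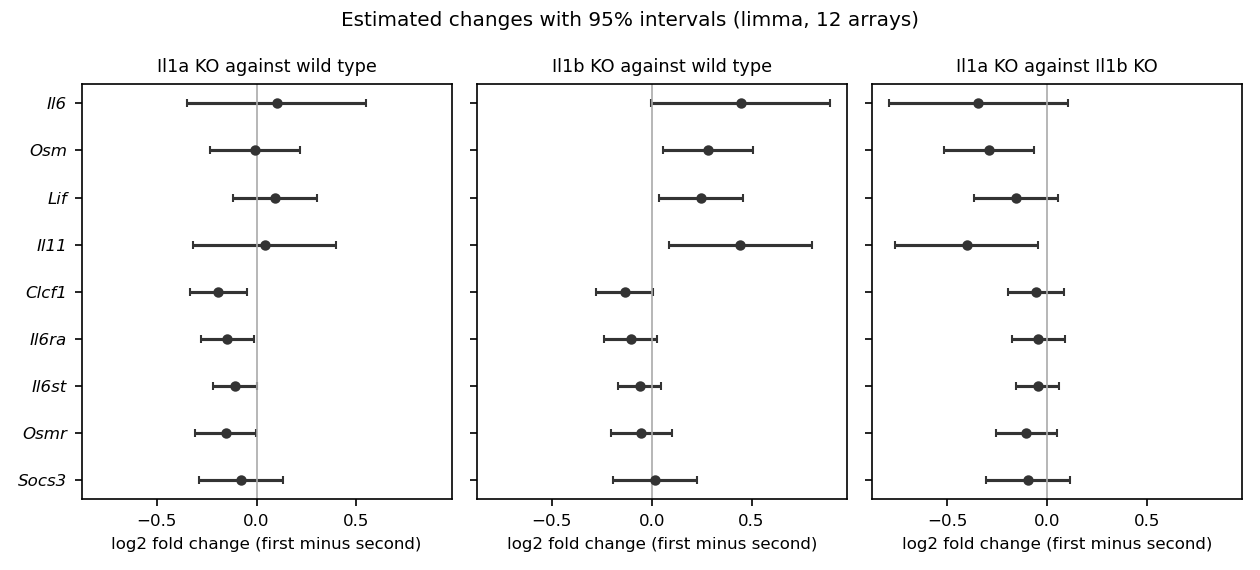
Log2 fold changes (points, horizontal axis) with 95% intervals from limma for the 9 genes (vertical axis) in the 3 comparisons. Il6, Osm, Lif and Il11 have positive estimates in the Il1b KO (0.24 to 0.45). The receptor genes and Clcf1 have negative ones in both knockouts, which share the same wild-type arrays, and the interval of Il6st is the narrowest.

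The receptor genes had narrow intervals, and all 3 had negative estimates in both knockouts (49.8% of all genes in the Il1a KO and 48.0% in the Il1b KO). The 2 estimates of a gene share the same 4 wild-type arrays. Without wild-type replicate 3 the Osmr estimate in the Il1b KO was 0.0051. Il6st, which encodes gp130, was at 11.55, 11.70, 11.73 and 11.76 in wild type, at 11.48, 11.62, 11.59 and 11.61 in the Il1a KO, and at 11.59, 11.60, 11.65 and 11.65 in the Il1b KO. Wild-type replicate 1 lay among the knockout arrays while the other 3 wild-type arrays were above both knockouts. The log2 fold change was -0.11 in the Il1a KO (95% interval -0.22 to 1.66e-04, limma adjusted p = 0.602) and -0.06 in the Il1b KO (interval -0.17 to 0.05, limma adjusted p = 0.648). Falls of more than 1.16-fold and 1.12-fold lay outside these intervals.

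Osmr, the partner of gp130 for oncostatin M, was at 10.45, 10.52, 10.74 and 10.57 in wild type, at 10.32, 10.53, 10.40 and 10.42 in the Il1a KO and at 10.41, 10.45, 10.57 and 10.64 in the Il1b KO. The 3 groups overlapped. Its log2 fold change was -0.16 in the Il1a KO (95% interval -0.31 to -0.0027, limma adjusted p = 0.585) and -0.05 in the Il1b KO (interval -0.21 to 0.10, limma adjusted p = 0.797). Il6ra, the binding receptor for IL-6, was at 9.23, 9.12, 9.34 and 9.24 in wild type, at 8.99, 9.11, 9.12 and 9.12 in the Il1a KO and at 8.97, 9.22, 9.18 and 9.14 in the Il1b KO. Replicate 1 of each knockout was clearly the lowest of its group. Il6ra differed by -0.15 in the Il1a KO (interval -0.28 to -0.02, limma adjusted p = 0.528) and by -0.10 in the Il1b KO (interval -0.24 to 0.03, limma adjusted p = 0.502). Without Il1a KO replicate 1 the Il1a KO estimates of Clcf1, Il6ra, Il6st and Osmr were -0.15, -0.12, -0.08 and -0.12, with an adjusted p of at least 0.876.

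Socs3, the feedback inhibitor gene that STAT3 induces, was at 9.69, 9.42, 9.58 and 9.55 in wild type. The Il1a KO had 9.47, 9.45, 9.69 and 9.31, and the Il1b KO 9.35, 9.56, 9.82 and 9.56. The 3 ranges overlapped, with the highest and lowest arrays both in knockouts. The log2 fold change was -0.08 in the Il1a KO (95% interval -0.29 to 0.13, limma adjusted p = 0.927) and 0.02 in the Il1b KO (interval -0.19 to 0.23, limma adjusted p = 0.965). On this probe set, falls of more than 1.22-fold in the Il1a KO, or of more than 1.14-fold in the Il1b KO, lay outside the intervals. A second, dimmer Socs3 probe set turned the sign in the Il1b KO (log2 fold change -0.11, interval -0.32 to 0.10, limma adjusted p = 0.67). In the Il1a KO it gave -0.11 (interval -0.32 to 0.10), so larger falls lay inside its intervals.

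**Figure D3:**
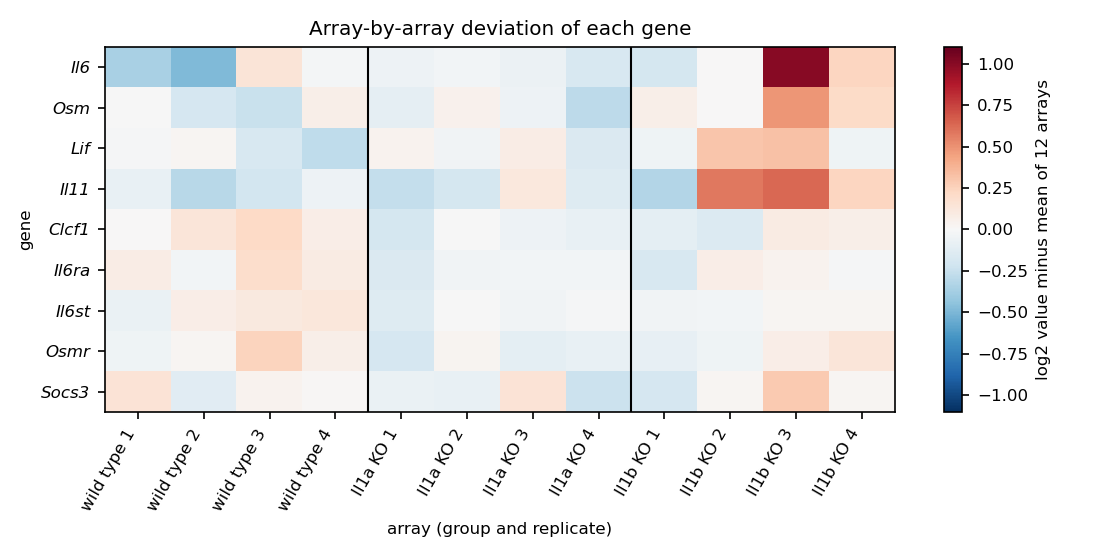
Deviation of each gene (rows) on each array (columns, by group and replicate) from its mean over the 12 arrays, in log2 units. The strongest colour is that of Il6 in Il1b KO replicate 3, an array that is also the highest in Osm, Lif, Il11 and, on the brighter probe set only, Socs3, and the receptor genes vary little.

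The genes differed in which array was extreme. Il1b KO replicate 3 was the highest of all 12 arrays in 5 of the 9 genes (Il6, Osm, Lif, Il11 and Socs3), although on the second Socs3 probe set it was the lowest. Wild-type replicate 3 was the highest in 3 others (Clcf1, Il6ra and Osmr). The lowest values of Clcf1, Il6st and Osmr were all on Il1a KO replicate 1, which carried the low Xist value. In the monocyte and macrophage marker list, wild-type replicate 3, Il1b KO replicate 3 and Il1a KO replicate 1 ranked 1, 2 and 12 of 12. In the neutrophil list they ranked 3, 5 and 11. The order in lists of other kinds varied. The same arrays ranked 2, 1 and 12 in a list of other SOCS genes and JAK-STAT brakes, and 1, 2 and 5 in the endothelium list. In the microglia list they ranked 12, 7 and 1, in the Schwann cell list 12, 4 and 1, and in the astrocyte list 12, 1 and 3. The part of cell numbers in the values was not tested.

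Because Socs3 is induced by signalling through gp130, its level was set against that of each other family gene across the 12 arrays, 8 relations in all. Pearson's r was 0.67 for Il11 (permutation p = 0.018), 0.62 for Il6 (permutation p = 0.0312) and 0.60 for Osm (permutation p = 0.0381). Spearman's rho was 0.68 for Il11 (permutation p = 0.0186), 0.49 for Il6 (permutation p = 0.11) and 0.30 for Osm (permutation p = 0.346). Adjusted over all genes tested against Socs3, 0 relations passed (adjusted permutation p = 1 for each), and 2.28% of all genes had an unadjusted p under 0.05. Without the 2 arrays farthest from the median of the ligand, r was 0.59 for Il11, 0.12 for Il6 and -0.0070 for Osm. The Il6 and Osm relations rest on such arrays, Il1b KO replicate 3 among them, and without that array alone r was 0.25 for Il6, 0.29 for Osm and 0.48 for Il11. Lif, Clcf1, Il6ra, Osmr and Il6st had r of 0.49, 0.31, 0.50, 0.29 and 0.08, with permutation p from 0.0952 to 0.816. By rank, Il6ra had a rho of 0.64 (permutation p = 0.0298). On values minus their group mean r was 0.77 for Il11, 0.68 for Il6 and 0.67 for Osm. Relations within a single group of 4 arrays were not tested. With the mean of both Socs3 probe sets in place of the brighter, r fell to 0.43 for Il11, 0.23 for Il6 and 0.20 for Osm. For Il6ra it rose from 0.50 to 0.67 (permutation p = 0.0166, not adjusted).

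**Figure D4:**
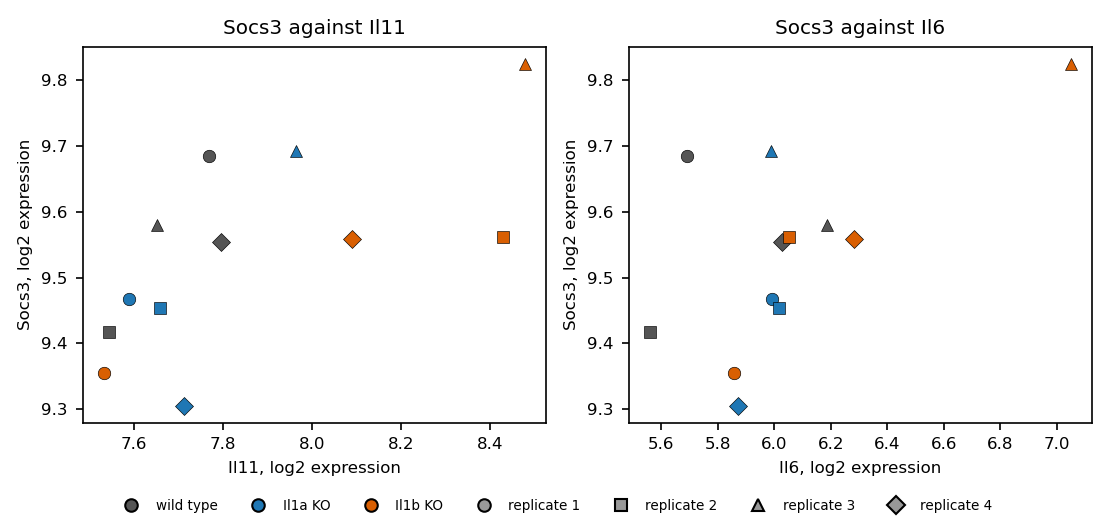
Socs3 against Il11 (left) and Il6 (right), both axes in log2 expression, 1 point per array with colour for genotype and shape for replicate. Il1b KO replicate 3 is at the upper right of both plots (Socs3 at 9.82 on the brighter probe set, while on the second it is the lowest array), and without it r falls from 0.67 to 0.48 for Il11 and from 0.62 to 0.25 for Il6.

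The other genes of the pathway were taken as lists. None of the 5 other ligand and ligand subunit genes measured (Ctf1, Ctf2, Il27, Ebi3 and Il31) was called by limma in either knockout, and 0 had an unadjusted p under 0.05. Their median log2 fold change was -0.02 in the Il1a KO and -0.11 in the Il1b KO, where all 5 were negative, against 3.31e-04 and 0.00397 for all genes. Ctf2, a cardiotrophin, differed by -0.08 and -0.23, Ebi3, a subunit of interleukin-27, by -0.04 in the Il1a KO, and Il31 by -0.11 in the Il1b KO. Ctf1 had group means of 6.66 to 6.77, and Ctf2 an Il1b KO mean of 6.74, under the background reference. Of 4 other receptor genes 0 were called, with medians of 0.05 and 0.13. Cntfr, the CNTF receptor that also binds the Clcf1 product, differed by 0.19 in the Il1a KO (limma adjusted p = 0.311) and by 0.20 in the Il1b KO (limma adjusted p = 0.137). Both knockouts lay above all wild-type arrays in Cntfr, and 5.06% and 7.00% of all genes had no overlap in these comparisons. Both comparisons use the same wild-type arrays. Il31ra, which pairs with Osmr, differed by 0.10 and 0.21, with group means of 6.14 to 6.35, under the background reference. The sheddases Adam17 and Adam10, which release soluble IL-6 receptor, differed by at most 0.09 in either knockout.

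Within the signalling chain 0 of 8 JAK and STAT genes were called in either knockout by limma. At an unadjusted p under 0.05, 1 was lower in the Il1a KO (3.77% of all genes) and 0 differed in the Il1b KO (4.58% lower and 8.42% higher). That gene was Stat3, the main effector of the family, with a log2 fold change of -0.13 in the Il1a KO (limma adjusted p = 0.328) and -0.02 in the Il1b KO. All 4 Il1a KO arrays were below wild type in Stat3, and 5.06% of all genes had no overlap in this comparison. Stat5b differed by -0.07 in the Il1a KO, and Tyk2 and the interferon effector Stat2 by 0.09 and -0.17 in the Il1b KO. Of 14 other SOCS genes and brakes 0 were called by limma. At an unadjusted p under 0.05, 1 was lower in the Il1a KO (3.77% of all genes) and 1 higher in the Il1b KO (8.42% of all genes). These were Ptpn2, a phosphatase that acts on JAK and STAT proteins, at -0.21 in the Il1a KO, and Socs7 at 0.13 in the Il1b KO. Ptpn6 differed by -0.09 in the Il1a KO and Pias4 by 0.09 in the Il1b KO. Of 10 regulators of Il6 transcription and mRNA decay 0 were called. In the Il1a KO 2 were lower at an unadjusted p under 0.05 (3.77% of all genes), with 0 in the Il1b KO (4.58% of all genes). Nfkbiz, a nuclear cofactor of NF-kB needed for Il6 induction, differed by -0.19 in the Il1a KO, and Zfp36, which destabilises cytokine mRNAs, by -0.20. In the Il1b KO the NF-kB subunit gene Rela differed by -0.07 and Rc3h2 by 0.07.

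Genes known to be induced by STAT3 were lower in most cases in the Il1a KO, but a single one passed. Of 34 measured, 32 had a negative log2 fold change in the Il1a KO (49.8% of all genes), with a median of -0.11, and 25 in the Il1b KO (48.0% of all genes), with a median of -0.04. Among them, Saa1, Saa2 and Fgg had wild-type means of 4.73, 6.15 and 5.21, under the background reference. With genes below the 25th percentile of brightness left out, 29 of 31 were negative in the Il1a KO and 22 of 31 in the Il1b KO. By limma 1 was lower in the Il1a KO, 0 were called in the Il1b KO, and at an unadjusted p under 0.05 the counts were 14 lower and 0 higher in the Il1a KO (3.77% and 4.54% of all genes), and 7 lower and 1 higher in the Il1b KO (4.58% and 8.42%). Without Il1a KO replicate 1, 30 of 34 were negative in the Il1a KO with a median of -0.09, and 0 were called. Directly between the knockouts 30 of 34 were lower in the Il1a KO (52.7% of all genes), with 0 called by limma and 7 lower at an unadjusted p under 0.05 (4.80% of all genes), and without Il1a KO replicate 1 the count was 23.

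The gene that passed was A2m, alpha-2-macroglobulin, an acute-phase protease inhibitor. It ranged from 11.28 to 11.41 in wild type, from 11.04 to 11.17 in the Il1a KO and from 11.20 to 11.28 in the Il1b KO, with no overlap between the Il1a KO and wild type. It fell 1.19-fold in the Il1a KO (log2 fold change -0.25, SE 0.0429, limma adjusted p = 0.0384). The call was lost without any 1 of 10 arrays, all but wild-type replicates 1 and 3, with adjusted p of 0.0531 to 0.18 and log2 fold changes of -0.28 to -0.23. It was also lost, at the same fold, in a fit of only the 2 groups compared (limma adjusted p = 0.16) and with the replicate number as a block (limma adjusted p = 0.11). In the Il1b KO its log2 fold change was -0.11 (limma adjusted p = 0.312). Timp1, a metalloproteinase inhibitor, had a larger difference in the Il1a KO, -0.43, but did not pass (limma adjusted p = 0.186). The smallest p values in the Il1b KO were those of the vascular growth factor gene Vegfa (0.20, limma adjusted p = 0.087) and the adhesion molecule gene Icam1 (-0.19, limma adjusted p = 0.177).

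**Figure D5:**
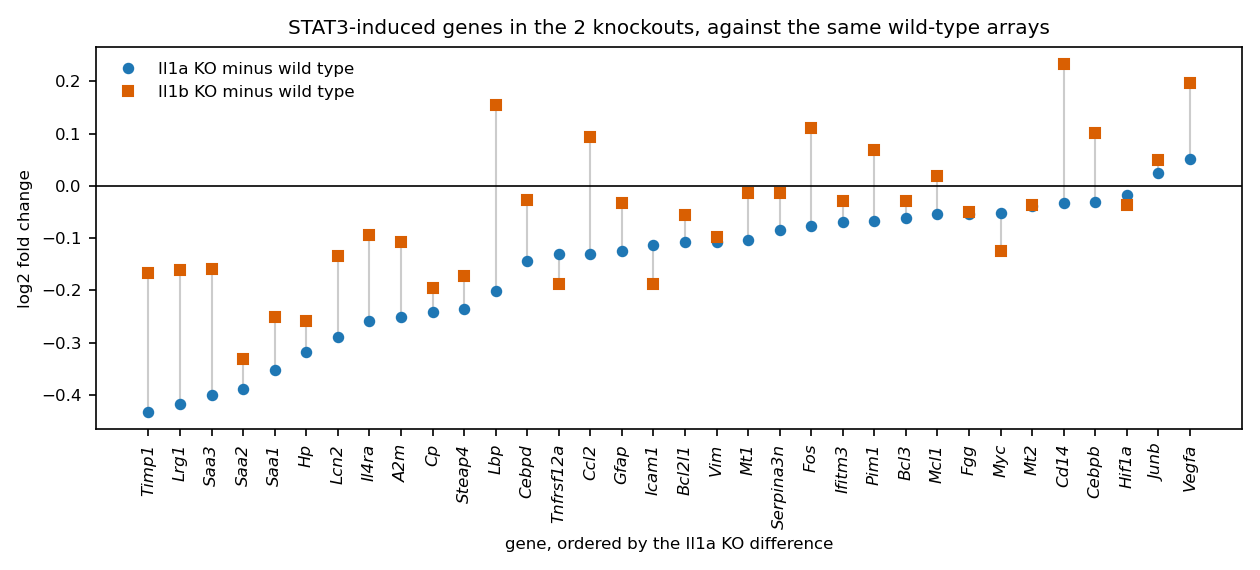
Log2 fold changes (vertical axis) of the 34 measured STAT3-induced genes (horizontal axis, ordered by the Il1a KO value) in the Il1a KO (circles) and the Il1b KO (squares), both against the same 4 wild-type arrays. All but 2 circles, those of Junb and Vegfa, are below 0, and 25 of the 34 squares are.

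Marker levels of infiltrating cells stood beside these genes as follows. In the Il1a KO 0 markers were called by limma (0.171% of all genes). At an unadjusted p under 0.05, 6 of 14 neutrophil and 4 of 13 monocyte and macrophage markers were lower (3.77% of all genes). The neutrophil list mean was 7.54 to 7.91 in wild type, 7.24 to 7.55 in the Il1a KO and 7.11 to 7.78 in the Il1b KO, and all 14 measured members were negative in the Il1a KO. Of these, 10 lay above the background reference, and Ly6g, Mmp8, Camp and Ngp did not. The monocyte and macrophage list mean was 8.64 to 8.87 in wild type, 8.48 to 8.68 in the Il1a KO and 8.53 to 8.86 in the Il1b KO, so the ranges overlapped, with 10 of 13 members negative in the Il1a KO, and Ms4a7, Plac8 and Cd163 not above the background reference. Cd14 is in both this list and the STAT3 list. Astrocyte markers, a resident source of several STAT3-induced genes, were at 10.69 to 10.80 in wild type, 10.74 to 10.80 in the Il1a KO and 10.72 to 10.80 in the Il1b KO. The part of cell numbers in the family or STAT3 values was not tested.

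The genes whose values followed each family gene most closely across the 12 arrays, among genes brighter than the median, were listed as a description, with group means removed. For Il11 these were Csf2rb2, Csf2rb and S100a9 (r = 0.96, 0.95 and 0.93), and for Il6 they were Kdm6b, Rab8b and Dgat1 (0.96, 0.91 and 0.91). Socs3 was followed by Cgref1, Usp3 and Csf2rb (0.93, 0.84 and 0.83), Osm by Krba1, Ptpn1 and Bop1 (0.87, 0.86 and 0.85), and Lif by Dpp9, Aimp2 and Galnt11 (0.91, 0.89 and 0.88). Csf2rb, the shared beta chain of the GM-CSF, interleukin-3 and interleukin-5 receptors, stood in both the Il11 and the Socs3 list. Osmr was followed by Ifngr1, Ctsl and Pdgfra (0.97, 0.95 and 0.95), Il6st by Resf1, Akr1b8 and S100a10 (0.97, 0.92 and 0.91), Il6ra by Lcp2, Sphk1 and Chst11 (0.95, 0.94 and 0.93) and Clcf1 by Ltbp1, Xpo5 and Zfc3h1 (0.95, 0.94 and 0.94). Without removal of group means the first-ranked genes were Tlr2 for Il11 (0.91), Abhd10 for Il6 (0.92), Nfil3 for Osm (0.88), Thop1 for Lif (0.88), Cgref1 for Socs3 (0.86), Ifngr1 for Osmr (0.96), Akr1b8 for Il6st (0.94), Slc10a6 for Il6ra (0.94) and Sinhcaf for Clcf1 (0.94).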

How the data were processed

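The deposited log2 values, 1 per probe set and array, were used as the authors made them. The submitters' processing notes list Partek, limma, RMA and GCOS 1.4 without saying what each did. That the values are RMA summaries was inferred from this list and from their near-equal distributions, so a shift of total RNA between groups would not show. For the probe annotation's build, a statement is not given in the sources used here. Among 35557 probe sets on the array, 21789 had exactly 1 symbol, 1621 several and 12147 none, and per gene the brightest stood for it.

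The fit (limma 3.58.1 under R 4.3.3) took 1 mean per group over all 12 arrays, two-sided, and Benjamini-Hochberg adjustment over 19938 genes. Exact permutation tests over 70 splits (smallest p 0.0286, too large for any gene to pass after adjustment) and correlations (100000 resamples, SciPy 1.17.1, adjusted over all genes) were computed beside it, and the fit was tested on simulated data. The labels name no animals, so p-values measure the spread between arrays. Precision is limited by how few arrays there are. The family genes, lists and tests were chosen with earlier results of these data known. From the pathway lists, genes that passed and the 2 with the smallest p per knockout are named. Motif matches and marker levels are descriptions. Replicate numbers did not pair the arrays. Alternatives covered normalization, variance model, probe set, dim genes, array weights and each array left out.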

Additional observations from a re-analysis of the deposited data

Results flagged for a closer look

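In the Il1a KO, Il6ra was at 8.99 in replicate 1, apart from the other 3 arrays at 9.11 to 9.12. This was the only outlying array among the 27 sets of 4 examined (9 genes in 3 groups), by Dixon's ratio of gap to range (0.92, above the critical value for 4 arrays), where chance gives about 1 in 20 sets, so 1 among 27 is no more than chance gives. The same array had the low Xist value, whose part in this was not tested.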

How the results depend on the processing

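With 1 exception, 0 family genes were called under each alternative. The exception was Il11 without Il1b KO replicate 1, which made the count 1 in the Il1b KO and between the knockouts (ranges 0 to 1 over arrays left out). Over all genes, an intensity trend together with robust variance estimation gave 74 calls in the Il1a KO and 309 in the Il1b KO, the fit of only the compared groups gave 15 and 85, and array weights gave 306, 1145 and, between the knockouts, 244. Leaving out single arrays gave 18 to 49 calls in the Il1a KO (fewest without wild-type replicate 4), 106 to 177 in the Il1b KO and 88 to 146 between the knockouts. Same-numbered arrays did not as a rule share deviations (r -0.37 to 0.44 in 12 pairs, 2 above 0.1, and 3 of 12 arrays closest to their own number). Unlike-numbered arrays of different groups had r from -0.51 (wild-type replicate 1 with Il1b KO replicate 3) to 0.57 (wild-type replicate 1 with Il1b KO replicate 2). The replicate block gave 26, 120 and 105 calls and 0 family genes. Under the block A2m had an adjusted p of 0.11.

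Signs turned only in estimates that did not pass. In the Il1a KO, Osm was 0.0066 after a second quantile normalization and ranged from -0.060 to 0.056 over arrays left out (above 0 without wild-type replicate 1 or 4 or Il1a KO replicate 4). Over arrays left out Il6 ranged from -8.67e-04 (without wild-type replicate 2) to 0.21, and Il11 from -0.037 to 0.089 (below 0 without wild-type replicate 2 or Il1a KO replicate 3), with -0.0040 under array weights. In the Il1b KO, Osmr ranged from -0.093 to 0.0051 (the latter without wild-type replicate 3). Socs3 there was -0.012 after quantile normalization, -0.048 as the mean of its probe sets, -0.11 by the more variable set, -0.020 with array weights, and from -0.067 to 0.090 over arrays left out (below 0 without wild-type replicate 2 or Il1b KO replicate 3). Between the knockouts Socs3 was 0.0049 by the more variable set. The relation of Il6st with Socs3 turned to r = -0.066 on values minus group means and ranged from -0.017 to 0.19 over arrays left out (lowest without Il1a KO replicate 1). Il6 could not be tested with dim genes left out, as it lies below the 25th percentile. The cause was not tested.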

Other observations

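Outside the pathway lists, marker genes of other cells gave the following values, all against the same 4 wild-type arrays. All 9 mature oligodendrocyte markers measured had positive log2 fold changes in both knockouts (medians 0.09 in the Il1a KO and 0.10 in the Il1b KO), and all 10 skeletal muscle markers had negative ones (medians -0.14 and -0.18), with 0 called by limma in either list, and at an unadjusted p under 0.05 5 and 4 oligodendrocyte markers higher (4.54% and 8.42% of all genes) and 4 and 4 muscle markers lower (3.77% and 4.58%). Of the muscle markers, Myh1, Myh2, Myh4 and Mylpf were not above the background reference. The muscle list mean was 7.23, 6.91, 7.27 and 7.03 in wild-type replicates 1 to 4. It was 6.93 to 6.96 in the Il1a KO and 6.84 to 6.97 in the Il1b KO, so wild-type replicate 2 was not above the knockouts. At an unadjusted p under 0.05, 6 neutrophil markers were lower in the Il1a KO (3.77% of all genes). By limma, 0 markers passed in the Il1a KO (0.171% of all genes) and 4 in the Il1b KO (0.813% of all genes). Lower were Ly6g, a neutrophil surface antigen not above the background reference, at -0.55 (adjusted p = 0.00869) and Itgam, an integrin chain of myeloid cells, at -0.48 (adjusted p = 0.0384). In the same lists 3 of 14 neutrophil and 6 of 13 monocyte and macrophage markers had positive values in the Il1b KO. Among them were Trem1 at 0.39 with overlapping groups and Lyz2 at 0.50 without overlap (limma adjusted p = 0.0843). Both were named after their values were seen, and 7.00% of all genes had no overlap in this comparison. Higher were the pericyte genes Rgs5 at 0.22 and Abcc9 at 0.20. Between the knockouts, the microglial receptor gene Gpr34 was called higher in the Il1a KO (limma adjusted p = 0.0299), on a probe set not above the background reference.

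The second Socs3 probe set was at 7.62, 7.18, 7.58 and 7.31 in wild type, at 7.24, 7.30, 7.47 and 7.25 in the Il1a KO and at 7.27, 7.47, 7.15 and 7.35 in the Il1b KO. On it, Il1b KO replicate 3 was the lowest of the 12 arrays, whereas on the brighter probe set it was the highest.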
